A study of Homo sapiens with 6 samples.

Results

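The 7 genes CCND1, CCND2, CCND3, FGFR3, WHSC1, MAF and MYEOV are the genes that recurrent chromosomal translocations of multiple myeloma place under immunoglobulin enhancers, and their RNA was followed in KMS27, an established human line of malignant plasma cells. They were taken by symbol from the authors' pairing of transcripts and genes, which gave 7 of 63677 genes and 82 of 215170 transcripts, and the transcript values of a gene were added up. Total RNA depleted of ribosomal RNA had been sequenced in 6 libraries, 3 labelled wild type and 3 labelled HA-TAZ. HA-TAZ is an overexpressed, HA-tagged form of TAZ, the transcriptional coactivator encoded by WWTR1, and neither its vector and promoter, nor clonality of the cells, nor a translocation of the line is given in the labels. All 6 libraries share the line, and nothing says that they came from separate cultures, so p-values measure the spread between these libraries, which may be technical. The names control a, b and c stand for the wild type libraries, because their column name, scr, stands in no label and was assigned to them by elimination. Their titles carry HA, and whether these cells held a construct is not stated.

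The values are TPM, an abundance corrected for length and stated relative to all transcripts of a library, so levels of different genes can be compared. WWTR1 was between 293 and 306 TPM in the HA-TAZ libraries and between 1.69 and 2.69 TPM in the controls. All 9 plasma cell markers passed a mean of 1 TPM and none of the B cell or T cell markers did; the plasma cell markers added up to between 2785 and 3217 TPM with HA-TAZ and between 4270 and 4825 TPM in the controls, with SLAMF7 called higher and CD38 called lower, and the part of this in the results below was not tested. For comparisons, TPM was divided by a factor per library (0.866 to 0.967 for HA-TAZ, 1.06 to 1.21 for controls), which is called scaled TPM. Genes with a mean of at least 1 TPM were tested with limma on log2(scaled TPM + 1), and a gene was called where the p-value adjusted over all 22651 tested genes was below 0.05. This called 7.29% of the tested genes, 4.67% higher and 2.63% lower with HA-TAZ. The split depends on the scaling: 64.0% of the called genes were higher here, against 43.4% with factors from protein-coding genes and 7.84% with TPM as deposited, where the median change of all tested genes was -0.27 on the log2 scale instead of -0.03.

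In myeloma, a break near an immunoglobulin gene brings a strong plasma cell enhancer beside an oncogene, and which gene is activated divides the disease into classes. A break on chromosome 4 can activate FGFR3, a receptor tyrosine kinase for fibroblast growth factors, together with WHSC1 (now NSD2, also called MMSET), a methyltransferase for lysine 36 of histone H3. Breaks on chromosomes 11, 12 and 6 activate the cyclins D1, D2 and D3, the regulatory subunits with which CDK4 and CDK6 phosphorylate the retinoblastoma protein, and a break on chromosome 16 activates MAF, a basic leucine zipper transcription factor.

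In the control libraries, FGFR3 and WHSC1 stood far above the other members. FGFR3 was at 283, 326 and 356 TPM and WHSC1 at 173, 156 and 150 TPM. By control mean, FGFR3 was the gene of rank 174 and WHSC1 of rank 386 among 19376 protein-coding genes. CCND3 was the next member, at 13.0, 12.1 and 12.4 TPM, rank 6383. MYEOV, CCND1, CCND2 and MAF were near or below 1 TPM. MYEOV was at 1.69, 0.998 and 0.986 TPM, CCND1 at 0.169, 0.116 and 0.0623 TPM, CCND2 at 0.0704, 0.0526 and 0.121 TPM and MAF at 0.0220, 0.0298 and 0.00676 TPM. The ratio of control means between neighbours in this order was 2.01 for FGFR3 over WHSC1, 12.8 for WHSC1 over CCND3, 10.2 for CCND3 over MYEOV and 10.6 for MYEOV over CCND1. CCND1 and CCND2 overlapped between libraries, with a ratio of 1.42, and their order is not resolved. CCND2 was above MAF in every control library, with a ratio of 4.17. Among the cyclins, CCND3 held nearly all RNA of the control libraries. The identity and karyotype of the line were not tested, so these are levels of the libraries labelled KMS27 and cannot be tied to a known translocation.

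**Figure D1:**
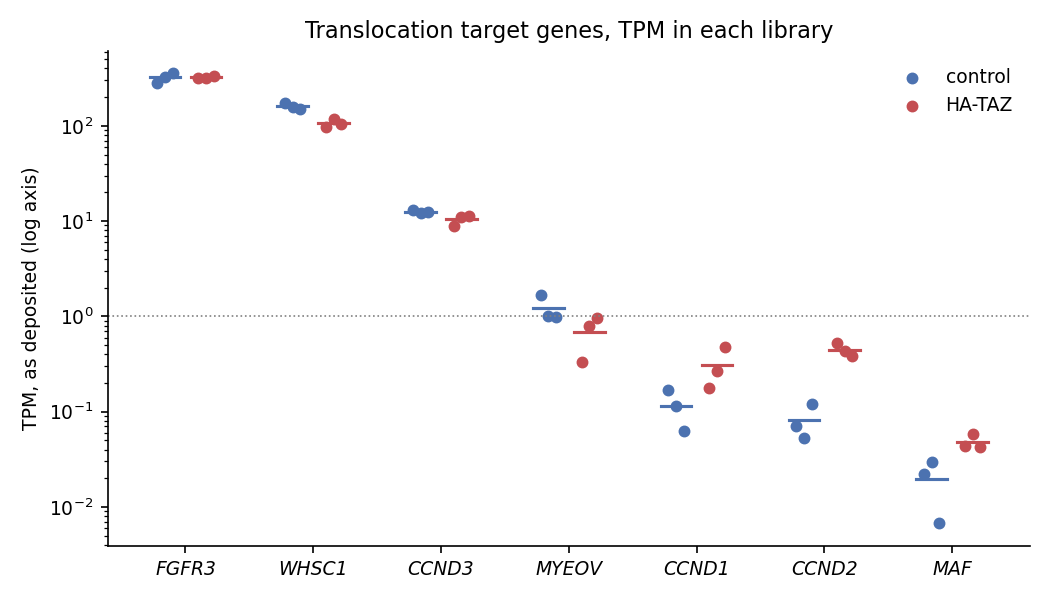
TPM as deposited (log axis) of the 7 genes in the 3 control and 3 HA-TAZ libraries; points are libraries, short lines are group means and the dotted line marks 1 TPM. FGFR3 and WHSC1 lie at 96.5 TPM or above in all 6 libraries, CCND3 between 8.91 and 13.0 TPM, and CCND1, CCND2 and MAF at 0.528 TPM or below.

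The FGFR3 transcripts in these libraries differ in a pair of alternative exons that code for the last part of the third immunoglobulin-like loop, the stretch that decides which fibroblast growth factors the receptor binds. Both exons follow the same shared bases, printed here in lower case before the first 45 bases of each exon in capitals, as GENCODE 29 gives them on the plus strand of GRCh38. The upstream exon lies at chr4:1802914-1803064 (151 bases) and the downstream exon at chr4:1803692-1803836 (145 bases).
ENST00000340107, upstream exon: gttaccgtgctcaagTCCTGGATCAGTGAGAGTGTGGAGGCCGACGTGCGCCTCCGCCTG
ENST00000481110, downstream exon: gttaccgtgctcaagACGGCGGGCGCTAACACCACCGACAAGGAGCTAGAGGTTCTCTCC
The upstream exon is the one described as IIIb, typical of epithelial cells, and the downstream exon the one described as IIIc. ENST00000340107.4, which codes for 808 residues, was at 119.7, 113.2 and 124.1 TPM in HA-TAZ 1, 2 and 3 and at 104.6, 121.3 and 125.8 TPM in the controls. ENST00000481110.2, with 792 residues in the annotation, was at 10.4, 11.5 and 11.2 TPM with HA-TAZ and at 9.59, 9.68 and 12.2 TPM in the controls. Of this pair of transcripts, the one with the upstream exon was more abundant in every library of both groups. Other FGFR3 transcripts were not assigned to either exon here. Among them were ENST00000352904.1 and ENST00000260795.2, at means of 35.7 and 22.7 TPM over all libraries. ENST00000440486.2, with 806 residues, was listed at 0 in all 6 libraries. Reads that fall outside the alternative exon are divided between these forms by the quantification, so their absolute levels are estimates.

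Not all FGFR3 RNA was annotated as coding. Coding transcripts held 51.5, 51.0 and 51.4% of FGFR3 TPM in HA-TAZ 1, 2 and 3 and 52.8, 52.6 and 50.1% in controls a, b and c. Short transcripts with a retained intron held 41.1% ± 0.735 (SD, n = 3) with HA-TAZ and 41.7% ± 1.14 (SD, n = 3) in the controls. Both classes overlapped between groups. A single transcript annotated for nonsense-mediated decay, ENST00000260795.2, took 7.27, 7.09 and 8.20% with HA-TAZ and 5.82, 6.65 and 6.97% in the controls, with no overlap and an exact two-sided permutation p of 0.1, the smallest that 3 against 3 libraries allow. With total RNA, unspliced precursor can be counted in such short transcripts.

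FGFR3 did not pass the test between groups. In scaled TPM it was at 369, 331 and 375 with HA-TAZ and at 234, 299 and 337 in the controls. The highest control lay above the lowest HA-TAZ library. The log2 fold change was 0.32 (SE 0.14, adjusted p = 0.187, limma), and with TPM as deposited it was 0.02, so its size rests on the scaling. With 1 library left out it lay between 0.17, without control a, and 0.44. All 7 of its transcripts with statistics had a positive effect in the authors' deposited table, where 50.2% of all 109487 transcripts had a negative one. Transcripts of 1 gene share reads, so their signs are not independent and this share is no like-for-like background. None of the 7 had a q-value below 0.05, where 4.08% of all these transcripts passed with a positive effect. An unadjusted p below 0.05 (authors' Wald test) was found for 4, and the share of all transcripts with such a p was not computed. The lowest q-value was 0.101, for ENST00000481110.2.

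WHSC1, as the sum of its transcripts, was the member that was called, lower with HA-TAZ. In scaled TPM it was at 111, 121 and 117 in HA-TAZ 1, 2 and 3 and at 143, 143 and 142 in controls a, b and c. The groups did not overlap, and the 3 controls had a mean of 143 with an SD of 0.970. Across all tested genes, 38.5% had groups without overlap. The log2 fold change was -0.29 (SE 0.04, adjusted p = 0.0293, limma), which is a ratio of means of 0.817. In TPM as deposited WHSC1 was at 96.5, 117 and 105 with HA-TAZ, against 106 ± 10.4 (SD, n = 3) as the group mean and 160 ± 12.1 (SD, n = 3) in the controls, and the log2 fold change was -0.59 where all tested genes had a median of -0.27. The call holds under each scaling and filter tried, with adjusted p from 0.0207 to 0.0480, but not without the intensity trend (adjusted p = 0.0619) and not when any 1 of the 6 libraries was left out (adjusted p from 0.0624 to 0.102). So 1 of 3 tested members was called, where the background for both directions is 7.29%. The sum did not fall evenly over its transcripts. ENST00000382891.5, the leading full-length transcript, had a log2 fold change of -0.04 (adjusted p = 0.768, limma). ENST00000511904.1, of 690 bases and annotated for nonsense-mediated decay, had means of 13.7 TPM with HA-TAZ and 27.5 TPM in the controls. Of 19 tested WHSC1 transcripts, 18 had a negative log2 fold change and 0 were called. In bulk RNA, fewer cells that express a gene and less RNA per cell cannot be told apart.

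FGFR3 and WHSC1 lie next to each other on chromosome 4, and their ratio within a library needs no scaling between libraries. The ratio of FGFR3 to WHSC1 TPM was 3.31, 2.73 and 3.196 in HA-TAZ 1, 2 and 3 and 1.63, 2.08 and 2.38 in controls a, b and c. Every HA-TAZ library was above every control, with an exact two-sided permutation p of 0.1, the smallest possible. This ratio was computed after the values of both genes had been seen, and it uses the sums over all transcripts of each gene. Of 10 tested genes in the same stretch of chromosome 4, none was called by limma at the main filter, where 7.29% of all tested genes were. An unadjusted p below 0.05 (limma) was found for 3 of the 10, beside 30.7% of all tested genes. Their median log2 fold change was 0.13, beside -0.03 over all tested genes. LETM1, a mitochondrial inner membrane protein, came nearest to the threshold, with a log2 fold change of 0.32 (adjusted p = 0.0507, limma), and was called with a filter at a mean of 5 TPM (adjusted p = 0.0328).

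**Figure D2:**
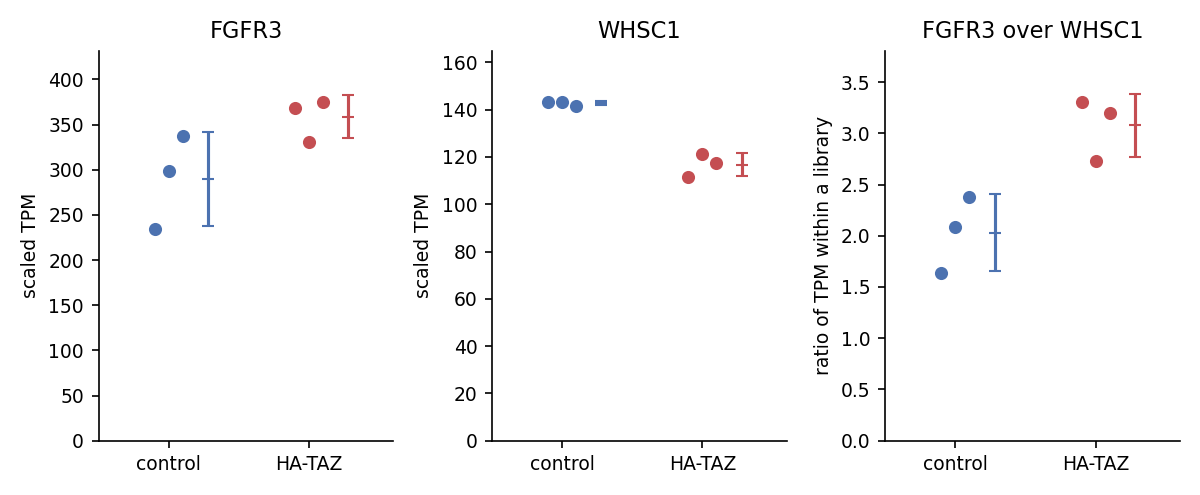
FGFR3 and WHSC1 in scaled TPM and the ratio of their TPM within each library; points are the 3 libraries of a group, bars are the mean with its SD, and all axes start at 0. FGFR3 overlaps between groups, WHSC1 is at 121 or below with HA-TAZ and at 142 or above in the controls, and the ratio is at 2.73 or above with HA-TAZ and at 2.38 or below in the controls.

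WHSC1 makes proteins of several lengths, and the short forms that share its first part end before the catalytic SET domain. The transcripts that the next values turn on share an exon and then part. The last 30 bases of the shared exon are in lower case and what follows in each transcript is in capitals, on the plus strand of GRCh38 after GENCODE 29. The full-length form goes on at chr4:1951072-1951101, the form of 647 residues at chr4:1942339-1942368 and the form of 629 residues reads on from the exon at chr4:1939779-1939784, of which the coding bases are shown.
ENST00000382891, 1365 residues: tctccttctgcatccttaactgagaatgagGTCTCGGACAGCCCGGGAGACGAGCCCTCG
ENST00000398261, 647 residues: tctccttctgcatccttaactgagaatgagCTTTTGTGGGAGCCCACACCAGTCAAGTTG
ENST00000420906, 629 residues: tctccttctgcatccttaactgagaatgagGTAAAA
In the authors' deposited table both short forms had a negative effect past a q-value of 0.05. ENST00000398261.1 was at 3.74, 4.34 and 4.72 TPM with HA-TAZ and at 8.49, 7.38 and 7.44 TPM in the controls. Its effect in the authors' deposited table was -0.37 on the natural log scale (SE 0.0640, q-value 1.24e-06). ENST00000420906.2 was at 2.13, 3.05 and 2.83 TPM with HA-TAZ and at 5.26, 4.33 and 5.13 TPM in the controls, with an effect of -0.39 (SE 0.0986, q-value 0.00369) in the authors' deposited table. The leading full-length transcript, ENST00000382891.5, had an effect of -0.01 (SE 0.0453, q-value 0.947) in the same table of the authors. A second transcript of 629 residues, ENST00000514045.1, had an effect of -0.04 (q-value 0.892) there.

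By the authors' deposited table, 19 of 23 WHSC1 transcripts had a negative effect and 4 a positive one, where 50.2% of all 109487 transcripts with statistics had a negative effect. The 23 belong to 1 gene and share reads, so they are not independent and the 50.2% is no like-for-like background. Of these 109487 transcripts with statistics, 1.6% were past the threshold with a negative effect and 4.08% with a positive one. Of the 43 member transcripts with statistics, 3 were past it, namely these 2 and the CCND2 transcript described below, and all 3 were also below 0.01. In the limma fit across transcripts, which called 0.534% of 57448, no member transcript was called. The calls of this fit were 80.8% higher with HA-TAZ, against 57.5% with TPM as deposited. Of the 28 member transcripts that passed the filter, 15 had an unadjusted p below 0.05, beside 24.1% of all tested transcripts. Of these 28, 7 were FGFR3 transcripts and 19 were WHSC1 transcripts, which are not independent within a gene. ENST00000398261.1 had the log2 fold change -0.48 (adjusted p = 0.0823) and ENST00000420906.2 had -0.46 (adjusted p = 0.109).

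**Figure D3:**
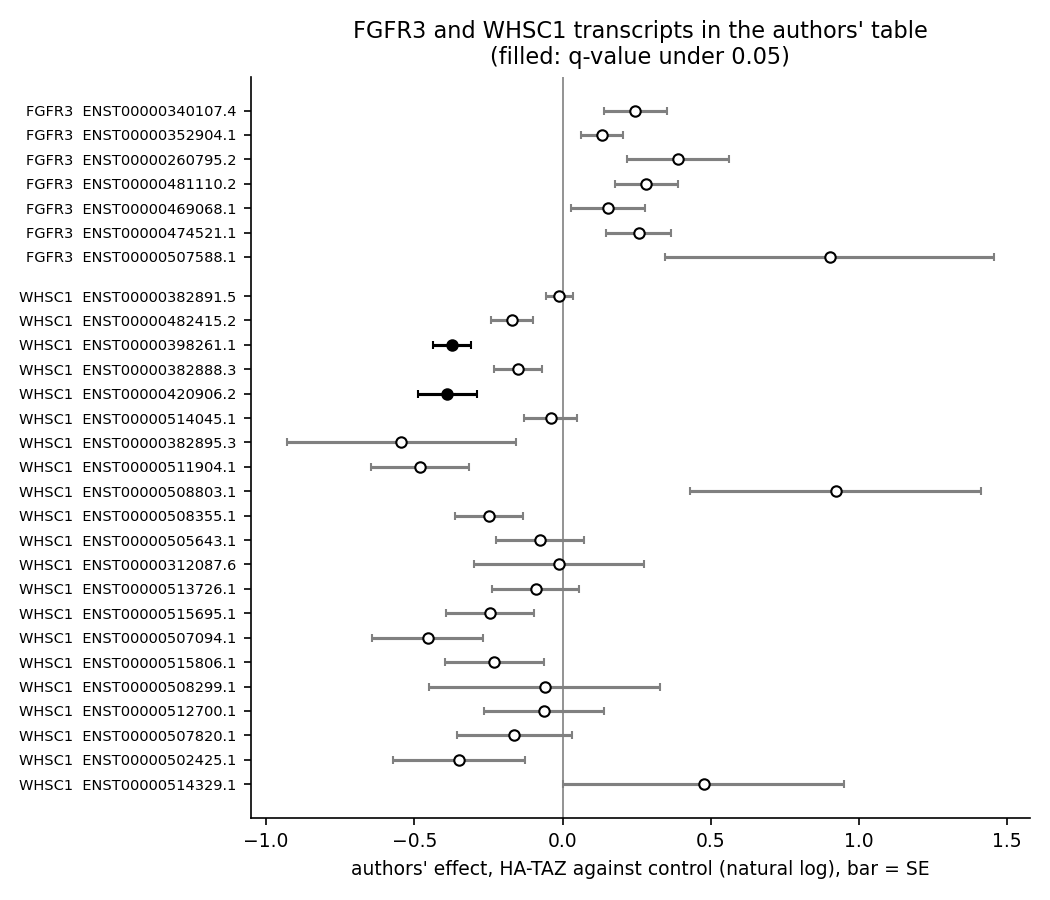
Effect of HA-TAZ against control on FGFR3 and WHSC1 transcripts, on the natural log scale with its SE, as the authors' deposited table gives them; filled points have a q-value below 0.05, transcripts are ordered by abundance within a gene, and 2 WHSC1 transcripts with an SE above 1 are not drawn. All 7 FGFR3 effects lie above 0, and the 2 filled points are WHSC1 transcripts at -0.37 and -0.39.

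Within WHSC1, the share of full-length coding transcripts was higher with HA-TAZ. Transcripts of 1365 residues made up 31.9, 27.6 and 29.9% of WHSC1 TPM in HA-TAZ 1, 2 and 3 and 22.7, 26.2 and 25.4% in controls a, b and c. Transcripts of 647 residues made up 4.24, 4.004 and 4.73% with HA-TAZ and 5.14, 4.88 and 4.97% in the controls. Neither pair of groups overlapped, each with an exact two-sided permutation p of 0.1. As deposited, the summed TPM of both classes was lower with HA-TAZ, at 31.5 ± 0.842 against 39.5 ± 1.43 TPM for 1365 residues and at 4.58 ± 0.440 against 7.99 ± 0.799 TPM for 647 residues (SD, n = 3 each). In deposited TPM the median log2 change of all tested genes was already -0.27. In scaled TPM the leading full-length transcript, ENST00000382891.5, overlapped between groups, with a log2 fold change of -0.04 (adjusted p = 0.768, limma). A fall of full-length RNA is therefore not shown. The class of 629 residues held 6.23 and 6.28% of WHSC1 TPM as group means, the class of 713 residues 6.47 and 6.24%, and both overlapped. ENST00000382888.3, the transcript of 713 residues, starts inside the gene. A large part of WHSC1 RNA was not full-length coding RNA: transcripts with neither coding sequence nor decay label, listed as processed transcripts, held 24.0 and 23.6%, and those annotated for nonsense-mediated decay 14.0 and 18.0%.

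Of 9 genes that write or erase methylation of lysine 36 of histone H3, 2 were called, beside 7.29% of all tested genes. ASH1L, a methyltransferase, was called lower with a log2 fold change of -0.21 (adjusted p = 0.0444, limma), and KDM4A, a demethylase, was called higher with 0.26 (adjusted p = 0.0444). ASH1L was at 22.4, 25.0 and 23.0 TPM with HA-TAZ and at 37.1, 32.3 and 31.4 TPM in the controls. ASH1L was lower under each scaling, and its call was lost without the trend (adjusted p = 0.0820) and with any 1 library left out (adjusted p from 0.0798 to 0.140). KDM4A was at -0.02 with TPM as deposited and no longer called (adjusted p = 0.833). The paralogues NSD1 and WHSC1L1 were at -0.08 each and not called. The median log2 fold change of the 9 was -0.08, beside -0.03 over all tested genes.

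Around FGFR3, 1 of 9 tested genes of receptors and signalling was called, beside 7.29% of all tested genes. GRB2, an adaptor that links receptor kinases to RAS, was higher with a log2 fold change of 0.33 (adjusted p = 0.0321, limma), and 0.04 with TPM as deposited (adjusted p = 0.77). This call was lost without the trend (adjusted p = 0.0604) and with any 1 library left out (adjusted p from 0.0602 to 0.120). The other receptors were far below FGFR3: FGFR1 was between 1.25 and 3.93 TPM, and FGFR2 and FGFR4 did not exceed 0.337 TPM in any library. The feedback inhibitors SPRY1, SPRY2 and SPRY4 were not called in the main fit, with log2 fold changes of -0.24, 0.13 and 0.38. With TPM as deposited, SPRY1 was called lower (adjusted p = 0.0217, limma) and was the only call among these genes. The protein-coding genes whose log2(scaled TPM + 1) followed FGFR3 most closely over the 6 libraries, of 11665 compared, were PYGO2 (Pearson's r = 0.9999), PEX5 (0.999) and LSM7 (0.997). These 6 libraries share their scaling and fall into the study's groups, so the values are a description.

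The D-type cyclins stand in for one another in the cell cycle, and their make-up was compared within each library. Their coding sequences begin with a short motif that binds the retinoblastoma protein (leucine, any residue, cysteine, any residue, glutamate). The first 36 coding bases are shown for the leading transcripts of CCND1 and CCND3, after GENCODE 29, with the codons of the motif in capitals, at codons 5 to 9 in CCND1 and 3 to 7 in CCND3.
CCND1, from chr11:69641314, plus strand: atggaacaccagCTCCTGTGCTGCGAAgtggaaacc
CCND3, from chr6:41941649, minus strand: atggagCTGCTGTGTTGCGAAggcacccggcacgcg
The positions are those of the first coding base in GRCh38. Both genes carry the motif near the start of the protein, while the values below show how far apart they are in abundance.

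CCND2 was low in every library and higher with HA-TAZ. The gene stood at 0.528, 0.432 and 0.381 TPM in HA-TAZ 1, 2 and 3 and at 0.0704, 0.0526 and 0.121 TPM in controls a, b and c. Each HA-TAZ library was at more than 3 times the highest control. The ratio of means was 5.49 in TPM and 6.72 in scaled TPM. CCND2 lay below the filter of the main test, and the exact two-sided permutation p was 0.1. Without the filter and with a pseudocount of 0.1, a choice made after the values were seen, the log2 fold change was 1.78 (SE 0.25, adjusted p = 0.0408, limma), where 1.14% of 47371 genes were called higher. In the authors' deposited table ENST00000261254.3, the transcript of 289 residues, had an effect of 1.89 (SE 0.259, q-value 1.42e-10) on about 75.4 estimated counts. This count is a geometric mean over both groups, so controls lie below it and HA-TAZ libraries above it. This transcript was at 0.421, 0.432 and 0.381 TPM with HA-TAZ, and the rest of HA-TAZ 1 came from a short non-coding transcript, ENST00000541542.1, at 0.107 TPM. Of the antisense genes at this locus, CCND2-AS1 was at 0.0742 TPM in 1 library and listed at 0 in the other 5, and CCND2-AS2 was listed at 0 in all 6.

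CCND1 was also higher in each HA-TAZ library, at a level close to the limit of detection. It was at 0.178, 0.269 and 0.481 TPM with HA-TAZ and at 0.169, 0.116 and 0.0623 TPM in the controls. The lowest HA-TAZ library and the highest control nearly met. The ratio of means was 3.37 in scaled TPM, with an exact two-sided permutation p of 0.1, and the added fit without a filter gave an adjusted p of 0.183 (limma). Much of this came from short retained-intron transcripts that were above 0 in 1 or 2 libraries each. The coding transcript ENST00000227507.2 alone was at 0.129, 0.133 and 0.161 TPM with HA-TAZ and at 0.0991, 0.116 and 0.0623 TPM in the controls, with an effect of 0.67 (SE 0.257, q-value 0.113) in the authors' deposited table on about 31.3 estimated counts. CCND1, CCND2 and MAF were 3 of 4 members below the filter whose HA-TAZ libraries were all above the controls. Among all 24720 genes above 0 and below the filter, this held for 5.15%. These include genes listed at 0 in HA-TAZ libraries, which cannot meet it, so this share is no like-for-like background for the members.

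CCND3 carried nearly all D-type cyclin RNA and did not pass the test. In scaled TPM it was at 10.3, 11.5 and 12.9 with HA-TAZ and at 10.8, 11.1 and 11.7 in the controls, which overlap. The log2 fold change was 0.04 (SE 0.09, adjusted p = 0.811, limma). With TPM as deposited the groups did not overlap and the change was -0.24 (adjusted p = 0.148), and with factors from protein-coding genes it was -0.03, so its direction depends on the scaling. As a share of the summed D-type cyclin TPM, which needs no scaling, CCND3 held 92.7, 94.1 and 93.0% with HA-TAZ and 98.2, 98.6 and 98.5% in the controls. CCND2 held 5.49, 3.64 and 3.09% with HA-TAZ and 0.530, 0.428 and 0.961% in the controls. CCND1 held 1.86, 2.27 and 3.91% with HA-TAZ and 1.27, 0.941 and 0.495% in the controls, and its difference of 1.78 percentage points between group means was 0.558 when transcripts below a mean of 0.1 TPM were left out. None of the 3 shares overlapped between groups, each with an exact two-sided permutation p of 0.1, also 0.1 after adjustment over the 3 shares. The shares are parts of 1 sum, so the lower CCND3 share is the complement of the other shares and no separate result. The summed TPM of the cyclins was 9.62, 11.9 and 12.3 with HA-TAZ and 13.3, 12.3 and 12.6 in the controls, and overlapped.

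**Figure D4:**
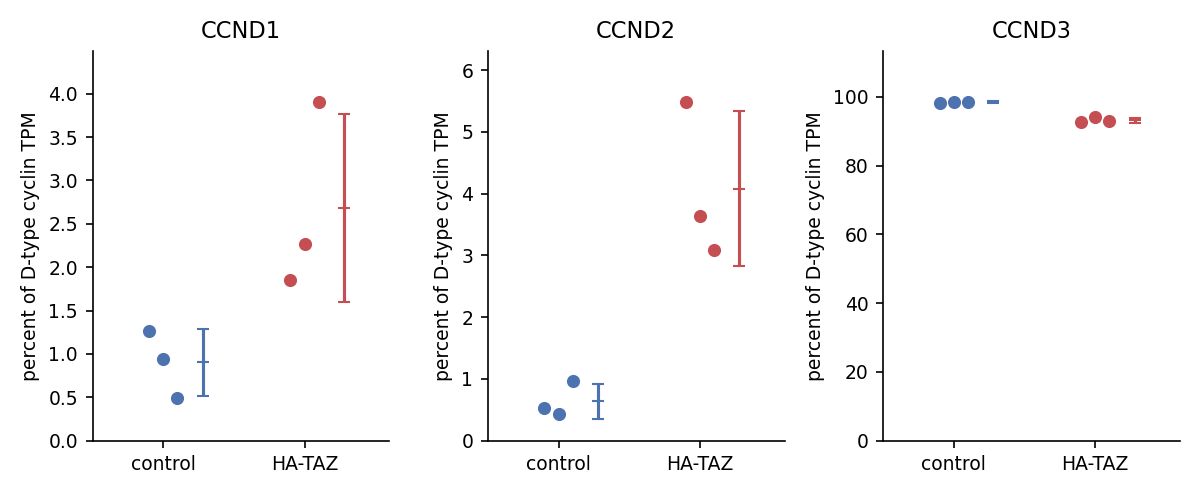
Share of each D-type cyclin in their summed TPM, in percent, for the 3 control and 3 HA-TAZ libraries; points are libraries, bars are the mean with its SD, and the 3 vertical axes have different ranges that each start at 0. CCND2 holds at most 0.961% in the controls and at least 3.09% with HA-TAZ, while CCND3 holds 92.7% or more in every library.

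CCND3 has several transcription starts. Downstream start here means the RefSeq start at chr6:41941808, although a further RefSeq start follows on the minus strand at chr6:41939205. Transcripts from the downstream start held 61.9% ± 5.62 (SD, n = 3) of CCND3 TPM with HA-TAZ and 55.6% ± 3.77 (SD, n = 3) in the controls, and those from the upstream start 21.1% ± 3.94 and 21.5% ± 3.35 (SD, n = 3 each). Transcripts from other starts held 17.0% ± 7.29 and 22.8% ± 6.94 (SD, n = 3 each). Each class overlapped between groups. The 250 bases before the downstream start, at chr6:41941809-41942058 on the minus strand of GRCh38 from RefSeq, are printed 5′ to 3′ because this start led in both groups, with the one match to GGAATG or its reverse complement in capitals.
CCND3, downstream start: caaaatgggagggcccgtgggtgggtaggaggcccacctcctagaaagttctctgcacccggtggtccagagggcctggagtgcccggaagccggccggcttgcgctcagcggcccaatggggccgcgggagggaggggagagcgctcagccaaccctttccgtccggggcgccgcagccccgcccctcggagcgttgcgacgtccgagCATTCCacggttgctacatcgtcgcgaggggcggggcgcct
GGAATG is the core of the site bound by TEAD proteins, through which TAZ acts on DNA. It was searched on both strands and stands here on the minus strand of the gene, 41 bases before the RefSeq start. The annotated 5′ end of the leading transcript, ENST00000372991.4, is chr6:41941848, inside this window. For that transcript the match lies at the 5′ end itself and not 41 bases before it. A match is found in 11.9% of 35116 promoter windows of this length. No match was found before the other 2 RefSeq starts of CCND3, nor before those of FGFR3, NSD2 and MAF. A match is a stretch of letters, and binding was not measured.

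A RefSeq promoter of WHSC1, listed as NSD2, is shown because WHSC1 is the called member. It is not the window before the leading transcript, ENST00000382891, whose annotated start is chr4:1892782, downstream of it. The short forms ENST00000420906 and ENST00000398261 also start downstream, at chr4:1892845 and chr4:1900626. The window lies at chr4:1871143-1871392 on the plus strand of GRCh38 from RefSeq. Capitals mark a match to the E2F forms searched on both strands (TTTCCCGC, TTTGGCGC, TTTCGCGC and TTTGCCGC), 77 bases before the RefSeq start.
NSD2: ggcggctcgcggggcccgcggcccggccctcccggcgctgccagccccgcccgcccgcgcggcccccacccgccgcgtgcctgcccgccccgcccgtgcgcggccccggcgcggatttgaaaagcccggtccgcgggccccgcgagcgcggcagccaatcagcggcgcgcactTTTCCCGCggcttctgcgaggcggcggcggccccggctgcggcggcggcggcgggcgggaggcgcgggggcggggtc
One of these forms is found in 2.79% of the 35116 windows. The window has a GC content of 86.0%, and that of FGFR3 86.8%, where the median of all windows is 58%. Of the 7 genes, 4 had an entry among the RefSeq promoters.

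Among the partners and inhibitors of the D-type cyclins, 2 of 15 tested genes were called, both higher with HA-TAZ, where 4.67% of all tested genes were. The count and direction of this list change with the settings: TPM as deposited called 1 higher (CDKN2B) and 3 lower (RBL1, RBL2 and GSK3B), protein-coding factors called CDKN2B higher and RBL2 lower, and a filter at a mean of 5 TPM called 4 higher and 1 lower. CDKN2B, an inhibitor of CDK4 and CDK6, was at 13.7, 15.9 and 14.8 TPM with HA-TAZ and at 10.6, 8.50 and 10.7 TPM in the controls. Its log2 fold change was 0.81 (SE 0.10, adjusted p = 0.0149, limma), higher under each scaling (0.54 with TPM as deposited, adjusted p = 0.0375), and the call was lost in 5 of the 6 fits that leave out a library. CDK6 was at 49.996, 57.3 and 52.2 TPM with HA-TAZ and at 60.8, 52.3 and 52.1 TPM in the controls. Its groups overlapped in deposited TPM, and its log2 fold change was 0.25 (adjusted p = 0.0313) after scaling and -0.05 (adjusted p = 0.695) before, and its call was lost without the trend and with any 1 library left out. CDK4 came near the threshold, with a log2 fold change of 0.37 (adjusted p = 0.0531) after scaling and 0.07 (adjusted p = 0.331) before.

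The median log2 fold change of the 15 was 0.17, beside -0.03 over all tested genes. CDKN2A, which codes for the inhibitor p16 and for ARF, was the most abundant inhibitor, between 299.8 and 445 TPM in all libraries. Its log2 fold change was 0.45 (adjusted p = 0.0599), and 0.15 (adjusted p = 0.473) with TPM as deposited. In the main fit CDKN2C was at 0.17, CDKN2D at 0.16 and CDKN1A at 0.51, none called. The targets of the cyclin kinases differed in level: RB1 was between 0.181 and 0.480 TPM in all libraries and not tested, while its relatives RBL1 and RBL2 were between 9.06 and 18.0 TPM and between 22.3 and 36.5 TPM. RBL1 had a log2 fold change of -0.33 (adjusted p = 0.119) and RBL2 of -0.19 (adjusted p = 0.06), which with TPM as deposited were -0.61 (adjusted p = 0.0365) and -0.48 (adjusted p = 0.0337). CDK2 was at 0.04, and the regulators of cyclin D turnover were at 0.32 (AMBRA1), 0.17 (FBXO31), -0.13 (FBXO4), -0.20 (GSK3B) and 0.14 (USP2), none called. CDKN1B was listed at 0 in all 6 libraries.

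**Figure D5:**
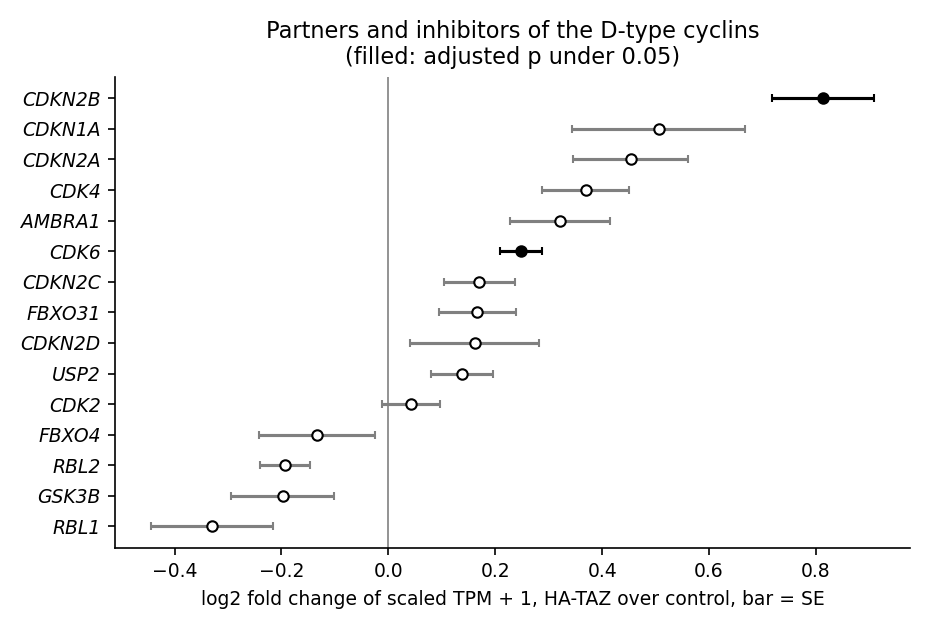
Log2 fold change of scaled TPM + 1, HA-TAZ over control, with its SE, for the 15 tested partners and inhibitors of the D-type cyclins; filled points have an adjusted p below 0.05. CDKN2B at 0.81 and CDK6 at 0.25 are filled, and CDK6 is at -0.05 with TPM as deposited.

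Genes downstream of the cyclins, the E2F factors and their targets, were all 25 tested, and 1 was called, beside 7.29% of all tested genes. E2F4, a repressive member of the family, had a log2 fold change of 0.29 (adjusted p = 0.0345, limma), and -0.01 (adjusted p = 0.936) with TPM as deposited, where E2F4 was not called and 3 targets were called lower. Its call was lost without the trend and with any 1 library left out (adjusted p from 0.0606 to 0.124). The median log2 fold change of the 25 was 0.15, beside -0.03 over all tested genes. Of the genes near CCND1 and MYEOV 8 were tested, of those near CCND2 7 and of those near CCND3 9, and none was called by limma at any of these loci, where 1, 1 and 2 had an unadjusted p below 0.05, beside 30.7% of all tested genes. With TPM as deposited, 1 gene near CCND1 and MYEOV and 1 near CCND3 were called lower, and a filter at a mean of 5 TPM called 1 near CCND3 higher.

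MAF was the lowest member. It was at 0.0436, 0.0581 and 0.0429 TPM with HA-TAZ and at 0.0220, 0.0298 and 0.00676 TPM in the controls. The HA-TAZ libraries were all above the controls, but the whole gene rests on few reads: its leading transcript, ENST00000393350.1, had about 8.56 estimated counts per library in the authors' deposited table, with an effect of 0.50 (SE 0.619, q-value 0.781). The exact two-sided permutation p at gene level was 0.1. Of its known programme in myeloma, 3 of 7 genes were tested, and DEPTOR, an inhibitor of mTOR, was called lower. Of all tested genes, 7.29% were called and 2.63% were called lower. DEPTOR was at 35.98, 39.6 and 35.4 TPM with HA-TAZ and at 59.7, 57.5 and 52.3 TPM in the controls, with a log2 fold change of -0.30 (adjusted p = 0.0285, limma) that was negative under each scaling. Its call was lost without the trend (adjusted p = 0.0600) and with any 1 library left out (adjusted p from 0.0596 to 0.101). ITGB7, the integrin subunit that MAF is known to induce, was not called (0.07, adjusted p = 0.452). Of the genes near MAF, 3 were tested and none was called by limma, where 7.29% of all tested genes were. An unadjusted p below 0.05 (limma) was found for 1, beside 30.7% of all tested genes, and 1 was called lower with TPM as deposited.

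MYEOV, a gene of unclear function beside CCND1, was at 0.329, 0.790 and 0.961 TPM with HA-TAZ and at 1.69, 0.998 and 0.986 TPM in the controls. Its mean of 0.959 TPM lay just below the filter. The groups did not overlap in deposited TPM and overlapped in scaled TPM, where the exact two-sided permutation p was 0.4. Most of this was non-coding: the coding transcripts together did not exceed 0.199 TPM in any library and were listed at 0 in 2 of the HA-TAZ libraries. The leading transcript, ENST00000540356.1, rested on about 9.26 estimated counts, and the authors' deposited table lists its q-value as 0.632.

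Of 8 further genes that translocations activate in myeloma or its relatives, 5 were tested and 1 was called, beside 7.29% of all tested genes. MYCL, a member of the MYC family, was at 2.61, 2.66 and 2.77 TPM with HA-TAZ and at 1.21, 1.25 and 1.03 TPM in the controls. Its log2 fold change was 0.95 (SE 0.10, adjusted p = 0.0114, limma), it was called higher under each scaling, and the call was lost in 4 of the 6 fits that leave out a library.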

How the data were processed

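RNA of 6 libraries of KMS27 cells was measured, 3 HA-TAZ and 3 control, and each of the 6 library columns was used. The authors deposited TPM for 215170 transcripts. A further deposited table holds the authors' comparison, a Wald test by sleuth per the file headers and name, with p-values and q-values and with effects and means on the natural log scale. It gave statistics for 109487 transcripts; the exponential of its mean is called estimated counts here. Per the submitters' processing notes, kallisto 0.46.0, sleuth 0.30.0 and GRCh37 were used, with no role stated. The annotation release and whether strand was used are not given in the sources used here, so antisense and overlapping genes are uncertain.

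TPM was summed per gene ID with the authors' pairing. Scaled TPM is TPM over a median-of-ratios factor from 21512 genes above 0 in all libraries. Genes, and likewise transcripts, with a mean of at least 1 TPM were tested two-sided with limma 3.58.1 (R 4.3.3) and its trend option. The values tested were log2(scaled TPM + 1), and p-values were adjusted after Benjamini and Hochberg. Fold changes are on this scale and understate those of low genes. The fit was tested on simulated data. TPM keeps no depth, and the depth of a single library is unknown. The estimated counts of the authors' deposited table add up to 52795484, a sum of geometric means over transcripts and not the depth of any library. Single values were compared with exact two-sided permutation tests. Python 3.11.15 was used for the rest. Annotation came from GENCODE 29 by transcript ID without version and from RefSeq, both on GRCh38, and was not used to requantify.

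The members and the gene lists were chosen with earlier results of these data known. Named genes are the 7 members, the called genes of each list (at most 5), the tested partners and inhibitors of the D-type cyclins, and the 3 protein-coding genes most correlated with FGFR3. LETM1, ITGB7, NSD1, WHSC1L1, KDM4C, RB1, CDKN1B, the other FGF receptors, the SPRY genes and the antisense genes of CCND2 were named after their values were seen. Marker genes of myeloid, epithelial and stromal cells had 1 of 4, 2 of 4 and 1 of 4 tested, none called. Alternatives were other pseudocounts, filters and scalings, no trend, a replicate block by the numbers 1 to 3 in the column names (in this order controls a, b and c), and leaving out each library.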

Additional observations from a re-analysis of the deposited data

How the results depend on the processing

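The columns of both groups carry numbers from 1 to 3, which no label ties to a shared batch, and same-numbered libraries did not deviate together (correlations from -0.0332 to 0.0271 over the tested genes). A replicate block by these numbers, added after the data were examined, called 3 genes, 3 transcripts, 0 members and 0 genes of the lists, with WHSC1 at -0.29 (adjusted p = 0.112). FGFR3, CCND1, MAF and MYEOV kept their direction under every alternative run. FGFR3 stayed above the threshold; for the other 3 this can be read only from both fits without the filter, since permutations could not pass it. WHSC1 stayed negative throughout, and its call was lost without the trend (-0.29, adjusted p = 0.0619) and when each library was left out (-0.32 to -0.26). CCND2 passed without the filter (0.48, adjusted p = 0.0362) and with no filter and a pseudocount of 0.1 together (1.78, adjusted p = 0.0408), the latter chosen after seeing the data; left-out libraries gave 0.42 to 0.51. CCND3 changed sign with TPM as deposited (-0.24), with protein-coding factors (-0.033) and without HA-TAZ 3 (-0.037), while the other 5 leave-one-out fits were positive, up to 0.11. The 1652 called genes became 691 without the filter, 3329 with TPM as deposited, 758 without the trend, 749 with no filter and a pseudocount of 0.1, and 115 to 433 with a library left out. The 307 called transcripts became 108, 120, 156 and 136 in the same order, 1655 at a mean of at least 5 TPM, and 12 to 91 with a library left out. Members called went from 1 to 2 (CCND2 and WHSC1) without the filter at either pseudocount, to 0 without the trend, and were 0 in each leave-one-out fit. The 8 called genes over the lists became 4 without the filter at either pseudocount, 16 at a mean of at least 5 TPM, 15 with TPM as deposited, 3 without the trend, and 0 to 2 with a library left out. Leaving out libraries lowers the count through fewer samples. The shares of the cyclins and leading transcripts kept their direction in each alternative, with the size for CCND1 given above, except that the CCND2 leading share differed by 0 without HA-TAZ 1; for CCND1 and CCND2 only the leading transcript is left at 0.1 TPM and for MAF none, so no share could be had there. Members below 1 TPM rest on about 8.56 to 75.4 estimated counts, which limits them.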
